A study of Mus musculus with 8 samples.

Results

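Inflammasomes are protein platforms that assemble in the cytosol when a sensor detects danger or microbial products. A sensor such as Aim2, Nlrp3 or Nlrc4 recruits the adaptor Pycard (ASC), which gathers and activates the protease Casp1. Casp1 then matures the cytokines Il1b and Il18 and cleaves gasdermin D (Gsdmd), whose released fragment opens pores in the plasma membrane and drives the lytic death called pyroptosis. Casp4, the mouse gene for caspase-11, cleaves gasdermin D directly after binding bacterial lipopolysaccharide. The pathway is best known from macrophages, and epithelial and carcinoma cells can also carry parts of it.

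These 9 genes were followed in 3 mouse mammary carcinoma lines of BALB/c origin grown in culture, with no treatment named in the labels. D2A1-m1 (n = 2 cultures) and D2A1-m2 (n = 3) are sublines obtained independently of each other, each from D2A1 cells that had reached the lungs of BALB/c mice, over repeated rounds in the animal. Parental D2A1 (n = 3), a line that metastasises poorly, was their common reference. Each subline is the product of 1 selection, so that a difference from D2A1 describes that subline and not metastatic selection in general. RNA was hybridised to 8 single-colour Illumina MouseWG-6 v2.0 bead arrays in 2 batches, and both batches held all 3 lines. Batch 1 held replicate 1 of each line and D2A1 replicate 2, and the other 4 arrays were batch 2. The arrays detected 13618 to 14625 probes in D2A1-m1, 13768 to 14942 in D2A1-m2 and 13419 to 14387 in D2A1, at a detection p of at most 0.01 against the negative control beads. In bulk RNA, fewer cells that use a gene and less RNA per cell cannot be told apart.

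The genes were chosen by name, with earlier results of these arrays known, and their probes were selected on a measured value, the detection p. Of 19057 genes named on the array, the 9 genes have 17 probes, and 10 probes of 5 genes were detected on at least 1 of the 8 arrays: Casp1 (1 probe), Casp4 (3), Gsdmd (3), Aim2 (2) and Il18 (1 of its 2). In D2A1, 8 of these 10 probes were not detected on any array, so that they passed only through the sublines and had to be brighter there. Their differences from D2A1 are therefore given as a description, and their adjusted p-values are no independent evidence. The Casp1 probe passed in every line, and the Gsdmd probe ILMN_2941324 was detected on 1 of 3 D2A1 arrays. Closest to the limit on the inside was Casp4 ILMN_2811746, with a lowest detection p of 0.00641, and closest on the outside was Pycard ILMN_2763498, with a lowest detection p of 0.0192.

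Values per array are the deposited intensities. Differences are on the log2 scale after background correction with an offset of 16, quantile normalization and a fit with terms for line and batch over all 16462 detected probes. A probe was called when its difference reached 1.5-fold and its adjusted p (limma, Benjamini-Hochberg over these probes) lay below 0.05. Where no array of the dimmer line detected a probe, the fold is a bound, written "at least", in which the dimmer line is given its own signal or, if that is higher, the lowest signal detected on its arrays. The bound is taken from line means without the batch term, and it depends on the background correction and the offset. Probes differ in their hybridisation, so that only the same probe is compared between lines. Both sublines are compared with the same D2A1 arrays. How many of all detected probes separate the lines without overlap was not counted, so that a lack of overlap is given as a description.

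Casp1, the protease at the centre of the pathway, was the member with the widest range. Its probe ILMN_1247592 read 662 and 1062 on the D2A1-m1 arrays and 2295, 3143 and 3072 in D2A1-m2, against 82.3, 97.7 and 76.6 in D2A1. No array of one line overlapped with another line, and the order of the lines was D2A1-m2, D2A1-m1, D2A1. The means were 862 ± 283 in D2A1-m1 (SD, n = 2), 2836 ± 471 in D2A1-m2 (SD, n = 3) and 85.5 ± 10.9 in D2A1 (SD, n = 3). Casp1 was 13.9-fold higher in D2A1-m1 than in D2A1 (log2 3.79, SE 0.23, limma adjusted p = 1.07e-05), with 3.35 within batch 1 and 4.42 within batch 2. It was 49.1-fold higher in D2A1-m2 than in D2A1 (log2 5.62, SE 0.21, limma adjusted p = 6.17e-07), with 5.34 and 6.03 within the batches. The D2A1 cells stood close to the detection limit for this probe, with detection p-values of 0.00321, 0 and 0.00214. On the authors' variance-stabilized values the log2 differences were 2.102 in D2A1-m1 and 3.67 in D2A1-m2.

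Casp4 lies directly beside Casp1 on chromosome 9, and 2 of its 3 probes were brighter in both sublines. ILMN_1254655 read 106.5 and 134.5 on the D2A1-m1 arrays and 125.5, 108.1 and 106.5 in D2A1-m2, against 54.5, 56.5 and 55.2 in D2A1. ILMN_2811737 read 104.3 and 163.7 on the D2A1-m1 arrays and 161.6, 154.2 and 140 in D2A1-m2, against 57.0, 63.4 and 56.7 in D2A1. Both probes were detected on every subline array and on no D2A1 array, with overlap between the sublines and none with D2A1. The difference of ILMN_1254655 was at least 1.96-fold in D2A1-m1 (log2 1.77, SE 0.19) and at least 1.84-fold in D2A1-m2 (log2 1.71, SE 0.17). That of ILMN_2811737 was at least 2.17-fold in D2A1-m1 (log2 1.75, SE 0.23) and at least 2.75-fold in D2A1-m2 (log2 2.11, SE 0.22). The third probe, ILMN_2811746, did not follow them. It was detected on 1 array only, a D2A1-m2 one, and its log2 difference was 0.12 (95% interval −0.24 to 0.47) in D2A1-m1 and 0.38 (0.05 to 0.71) in D2A1-m2, neither of which was called. The probe sequences were not analysed here, so that no transcript form can be assigned to the disagreement.

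**Figure D1:**
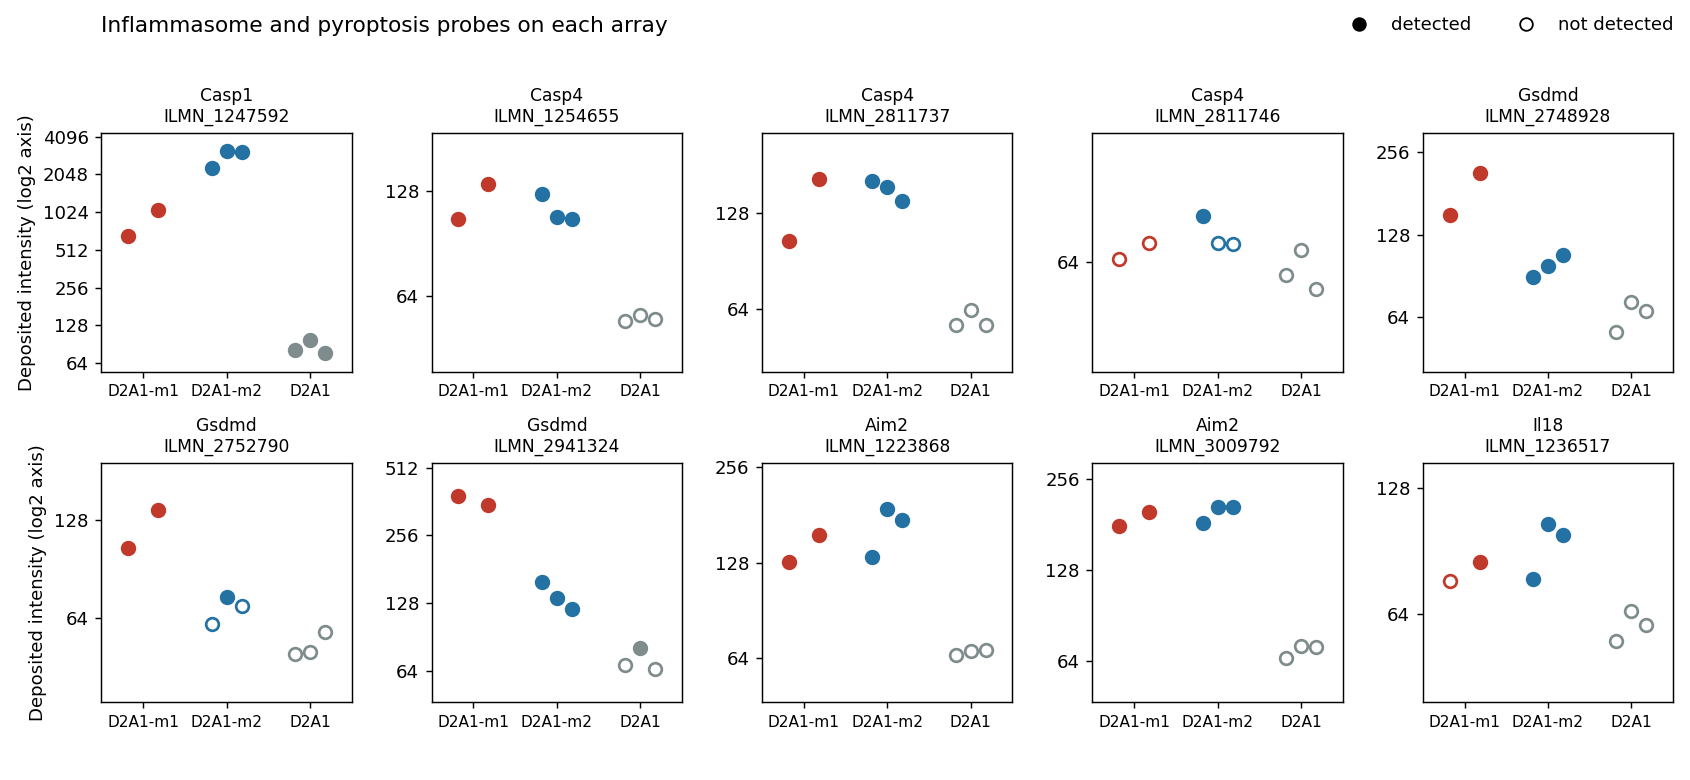
Deposited intensity (log2 axis) of the 10 detected probes on each array, 1 panel a probe, with D2A1-m1 in red, D2A1-m2 in blue and D2A1 in grey; filled points were detected and open points were not. Casp1 separates all 3 lines, Aim2 and 2 Casp4 probes separate both sublines from D2A1, and the Gsdmd probes are brightest in D2A1-m1.

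Gsdmd, the pore-forming substrate of both proteases, differed from Casp1 in its order across the lines. ILMN_2941324 read 384 and 349 on the D2A1-m1 arrays and 159, 135 and 121 in D2A1-m2, against 68.5, 81.4 and 65.4 in D2A1. ILMN_2748928 read 151 and 216 on the D2A1-m1 arrays and 89.9, 98 and 107.8 in D2A1-m2, against 56.4, 72.6 and 67.3 in D2A1. ILMN_2752790 read 105.2 and 136.9 on the D2A1-m1 arrays and 61.3, 74.3 and 69.6 in D2A1-m2, against 49.5, 50.4 and 57.8 in D2A1. With every probe the lines followed the order D2A1-m1, D2A1-m2, D2A1 without overlap. For ILMN_2752790, only 1 of 3 D2A1-m2 arrays and no D2A1 array reached detection, so that its order between these lines rests on signal near background. In D2A1-m1, ILMN_2941324 was 8.43-fold higher than in D2A1 (log2 3.07, SE 0.17, limma adjusted p = 8.34e-06; 3.01 and 3.11 within the batches), and the other probes were higher by at least 3.37-fold and at least 1.96-fold. In D2A1-m2 the same probe was 2.81-fold higher (log2 1.49, SE 0.16, limma adjusted p = 0.000339). ILMN_2748928 was higher by at least 1.47-fold (log2 0.83, limma adjusted p = 0.0135), and this call was lost without D2A1-m2 replicate 1 (adjusted p = 0.0982) or D2A1 replicate 3 (0.0963). ILMN_2752790 stayed below 1.5-fold in D2A1-m2 (log2 0.38, 95% interval 0.14 to 0.63) and was not called.

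Aim2, the sensor of double-stranded DNA in the cytosol, was the only 1 of the 3 sensors detected. Its probe ILMN_3009792 read 179 and 199 on the D2A1-m1 arrays and 184, 207 and 207 in D2A1-m2, against 65.4, 71.7 and 71.0 in D2A1. ILMN_1223868 read 129 and 157 on the D2A1-m1 arrays and 133, 188 and 174 in D2A1-m2, against 65.4, 67.5 and 67.8 in D2A1. The sublines overlapped with each other and lay above D2A1 with either probe, and no D2A1 array detected Aim2. The bounds were at least 3.55-fold and at least 2.48-fold in D2A1-m1 (log2 1.98, SE 0.13, and 1.54, SE 0.12), and at least 3.86-fold and at least 3.00-fold in D2A1-m2 (log2 2.11, SE 0.12, and 1.80, SE 0.11). RefSeq places Aim2 on chromosome 1 (173349547 to 173466040, GRCm38.p6) and Gsdmd on chromosome 15 (75862144 to 75867408), apart from Casp1, Casp4 and Il18 on chromosome 9.

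Il18, one of the cytokines that Casp1 matures, was dim in all 3 lines. ILMN_1236517 read 76.6 and 84.8 on the D2A1-m1 arrays and 77.3, 105 and 98.8 in D2A1-m2, against 55, 64.8 and 60 in D2A1. Every subline array lay above every D2A1 array, and 1 of the 2 D2A1-m1 arrays did not reach detection. The difference was at least 1.06-fold in D2A1-m1 (log2 0.62, SE 0.17, limma adjusted p = 0.0309) and at least 1.32-fold in D2A1-m2 (log2 0.92, SE 0.16, limma adjusted p = 0.00344). The D2A1-m1 call was lost without D2A1-m1 replicate 1 (adjusted p = 0.249) or 2 (0.136), D2A1-m2 replicate 3 (0.0578), or D2A1 replicate 1 (0.0650) or 3 (0.151). The D2A1-m2 call was lost with no background correction (log2 0.41), an offset of 50 (0.48) or the authors' processed values (0.19), each under 1.5-fold. The second probe, ILMN_1240661, was not detected on any array and read 58.1 and 65.9 in D2A1-m1, 63.3 to 67.8 in D2A1-m2 and 52.3 to 59.4 in D2A1.

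The remaining 4 genes were not detected in any line. The Nlrp3 probes (ILMN_1237471 and ILMN_2629297) read 45.3 to 50.1 in D2A1-m1, 42.6 to 51.9 in D2A1-m2 and 43.7 to 48.6 in D2A1. Nlrc4 (ILMN_1235447), the sensor that works with the Naip proteins, read 52.8 and 53.1 in D2A1-m1, 52.1 to 54.5 in D2A1-m2 and 48.0 to 52.7 in D2A1. Il1b (ILMN_2777498) read 50.2 and 51.2 in D2A1-m1, 50 to 55.9 in D2A1-m2 and 47.1 to 56.2 in D2A1. No array separated any of these probes from the negative control beads. Pycard, the adaptor, came nearer to the limit with ILMN_2763498, which read 65.4 and 60.5 in D2A1-m1, 56.0 to 69.5 in D2A1-m2 and 57.5 to 67.6 in D2A1, while ILMN_2936476 read 44.7 to 51.3 over the 8 arrays. An undetected probe limits what the array can show and is no measurement of absence.

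Over the 10 probes, 9 were called higher and 0 lower in D2A1-m1 against D2A1, where 6.20% of all detected probes were called higher and 6.06% lower. In D2A1-m2 against D2A1, 8 were called higher and 0 lower, beside 7.10% of all probes called higher and 5.90% lower. The median log2 difference of the 10 probes was 1.77 in D2A1-m1, with 1.60 in D2A1-m2. Over all detected probes it was −0.003 in D2A1-m1 against D2A1, with −0.009 in D2A1-m2. Since 8 of the probes entered only because a subline detected them, nothing is read from these counts. Of the 21 called differences of these probes in the 3 comparisons, 21 had the same sign within both batches. The calls came from a fit over both batches, so that this agreement was favoured in advance and is no replication. On the authors' processed values 4 of the 10 probes were called in D2A1-m1 and 3 in D2A1-m2. These were Casp1, Aim2 ILMN_3009792 and Gsdmd ILMN_2941324 and ILMN_2748928 in D2A1-m1, and Casp1, Aim2 ILMN_3009792 and Casp4 ILMN_2811737 in D2A1-m2.

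**Figure D2:**
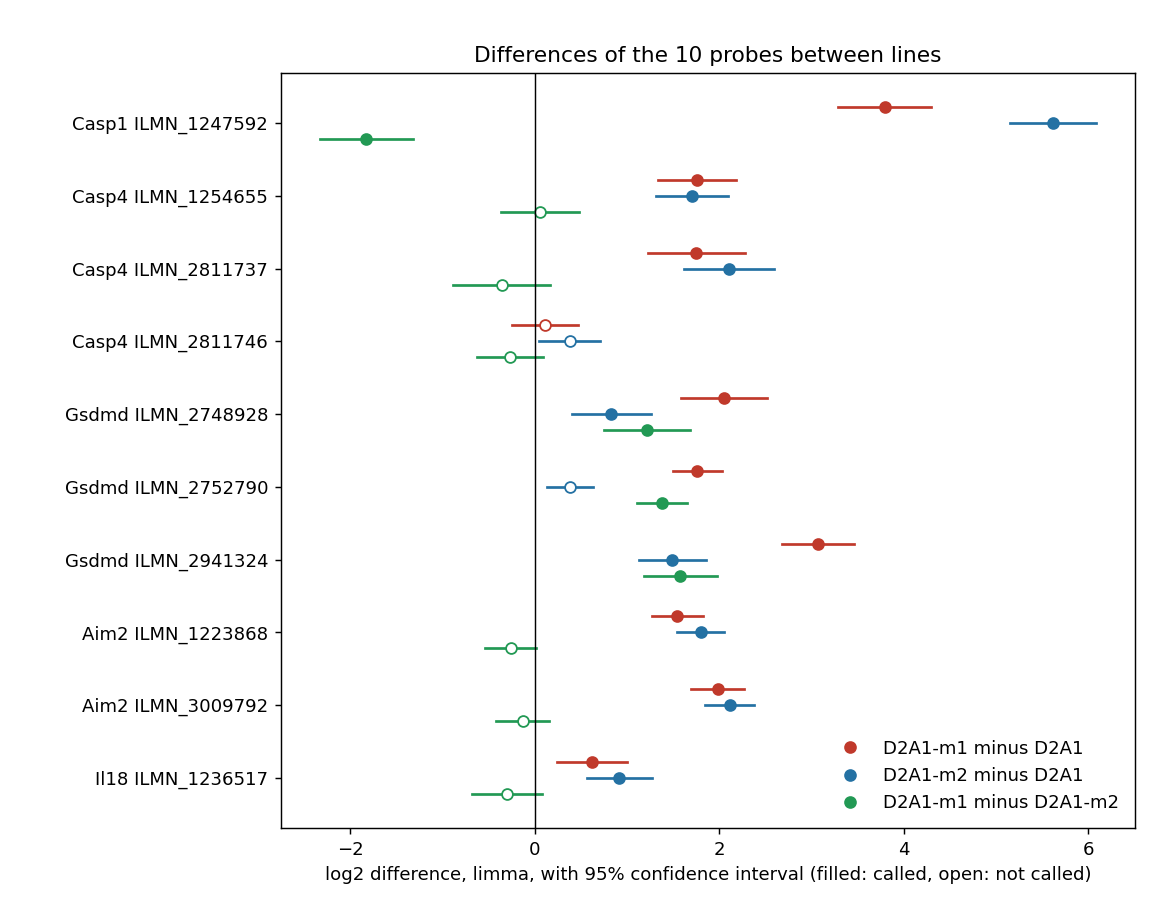
Log2 difference of each of the 10 probes with its 95% confidence interval from the limma fit, for D2A1-m1 minus D2A1 (red), D2A1-m2 minus D2A1 (blue) and D2A1-m1 minus D2A1-m2 (green); filled points were called. The green points lie at −1.82 for Casp1 and at 1.22 to 1.58 for Gsdmd, and the others were not called.

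The rule did not use the difference between the sublines, although the genes were picked with results known. Each subline detected Casp1, both Aim2 probes, 2 Casp4 probes and 2 Gsdmd probes on every array. Of the 10 probes, 3 were called higher in D2A1-m1 than in D2A1-m2, beside 1.52% of all detected probes, and 1 was called lower, beside 1.84%. The 3 higher probes were those of Gsdmd, and the lower one was Casp1. Casp1 was 3.54-fold lower in D2A1-m1 than in D2A1-m2 (log2 −1.82, SE 0.23, limma adjusted p = 0.00450), with −1.99 within batch 1 and −1.61 within batch 2. Gsdmd was higher in D2A1-m1 by 1.58 with ILMN_2941324 (SE 0.17, limma adjusted p = 0.00270), by 1.38 with ILMN_2752790 (SE 0.12, adjusted p = 0.000804) and by 1.22 with ILMN_2748928 (SE 0.21, adjusted p = 0.0173), all on the log2 scale. ILMN_2752790 was detected on only 1 of 3 D2A1-m2 arrays. On the authors' processed values it differed by 0.37 and ILMN_2748928 by 0.48, and neither was called. The protease and its substrate differed in opposite directions between the sublines. The Casp1 call was lost without D2A1-m1 replicate 1 (log2 −1.49, adjusted p = 0.0571), that of ILMN_2941324 without D2A1-m1 replicate 2 (1.46, 0.0810), and that of ILMN_2748928 without any 1 of the 5 subline arrays (1.03 to 1.38, adjusted p = 0.0594 to 0.253). Batch 1 alone, with 1 array of each subline, called 0 of the 10 probes and 0 of all probes.

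The remaining members were not called between the sublines, and their intervals bound the difference. For Aim2 the log2 difference of D2A1-m1 from D2A1-m2 was −0.13 (95% interval −0.42 to 0.16) with ILMN_3009792 and −0.26 (−0.53 to 0.02) with ILMN_1223868. For Casp4 it was 0.06 (−0.36 to 0.48) with ILMN_1254655, −0.35 (−0.88 to 0.17) with ILMN_2811737 and −0.26 (−0.62 to 0.09) with ILMN_2811746. For Il18 it was −0.30 (−0.68 to 0.08). The intervals of both Aim2 probes and of Casp4 ILMN_1254655 lay within 1.5-fold in either direction, and those of the other 2 Casp4 probes and of Il18 reached beyond it.

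Across the 8 arrays with the batch removed, the probes fell into patterns that can be described by their correlation, in which arrays of 1 line share most of their level. Casp1 correlated with Aim2 at 0.98 and 0.97, with Il18 at 0.95 and with the Casp4 probes at 0.93, 0.97 and 0.77. Its correlation with the Gsdmd probes was 0.59, 0.40 and 0.67. All of these probes but Gsdmd ILMN_2941324 passed only through the sublines, where Casp1 was also higher. The filter thus favoured positive correlations, and nothing is read from their size. The 3 Gsdmd probes correlated with each other at 0.94 to 0.98. Among 14106 probes of other single genes, 55 correlated with Casp1 at an r of at least 0.98, over n = 8 arrays. The 5 most like Casp1 were those of Pyroxd1 (r = 0.995), Rxylt1 (0.994), Ttc39b (0.993), Tcf4 (0.992) and Cavin1 (0.992). Rxylt1 is a glycosyltransferase that builds the sugar chains of dystroglycan, Tcf4 a basic helix-loop-helix transcription factor, and Cavin1 a coat protein of caveolae. The first 4 differed from D2A1 by 0.45 to 0.74 in D2A1-m1 and by 0.65 to 1.25 in D2A1-m2 on the log2 scale. Cavin1, which no D2A1 array detected, was at least 1.65-fold higher in D2A1-m1 and at least 2.66-fold higher in D2A1-m2. A correlation compares the order and spacing of the arrays and not the size of a difference.

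Casp1 (chromosome 9, 5298517 to 5307281, GRCm38.p6) sits in a cluster of inflammatory caspases, with Casp4 starting 10.3 kb and Casp12 starting 46.9 kb further along the chromosome. Casp12, a close relative of these proteases, has 3 probes, of which ILMN_1228200 and ILMN_2989535 were not detected in any line. The third, ILMN_1255816, was detected on every subline array and on no D2A1 array, and so passed only through the sublines. It averaged 88.8 ± 14.6 in D2A1-m1 (SD, n = 2) and 82.2 ± 6.50 in D2A1-m2 (SD, n = 3), against 55.5 ± 3.66 in D2A1 (SD, n = 3), which is at least 1.22-fold and at least 1.09-fold higher, given as a description. Beyond the cluster, the nearest genes with a detected probe were Msantd4, at −922 kb from the start of Casp1, and the dynein gene Dync2h1, at 1630 kb. Msantd4 differed by 0.06 in D2A1-m1, with 0.09 in D2A1-m2, while the 2 Dync2h1 probes differed by 0.14 to 0.20 and 0.16 to 0.23, on the log2 scale and without a call. Over all detected probes, 6.20% were called higher and 6.06% lower in D2A1-m1, with 7.10% higher and 5.90% lower in D2A1-m2. Of the 19 probes of 12 genes around Casp1 (4 before it and 8 after it), 3 were called higher in each subline. These were 2 Casp4 probes and that of Casp12. Nothing is read from this count, since no D2A1 array detected these probes and they passed only through the sublines. The 1 lower probe in each was ILMN_2737685 of Mmp13, a collagenase (log2 −1.23 and −0.97), whose call was lost without D2A1-m1 replicate 1 (adjusted p = 0.0925), D2A1-m1 replicate 2 (0.115) or D2A1 replicate 3 (0.0680) in D2A1-m1. In D2A1-m2 it was lost without D2A1-m2 replicate 2 (0.0671), D2A1-m2 replicate 3 (0.0779) or D2A1 replicate 3 (0.206). The caspases of this cluster are related in sequence, and cross-hybridisation between their probes was not tested.

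**Figure D3:**
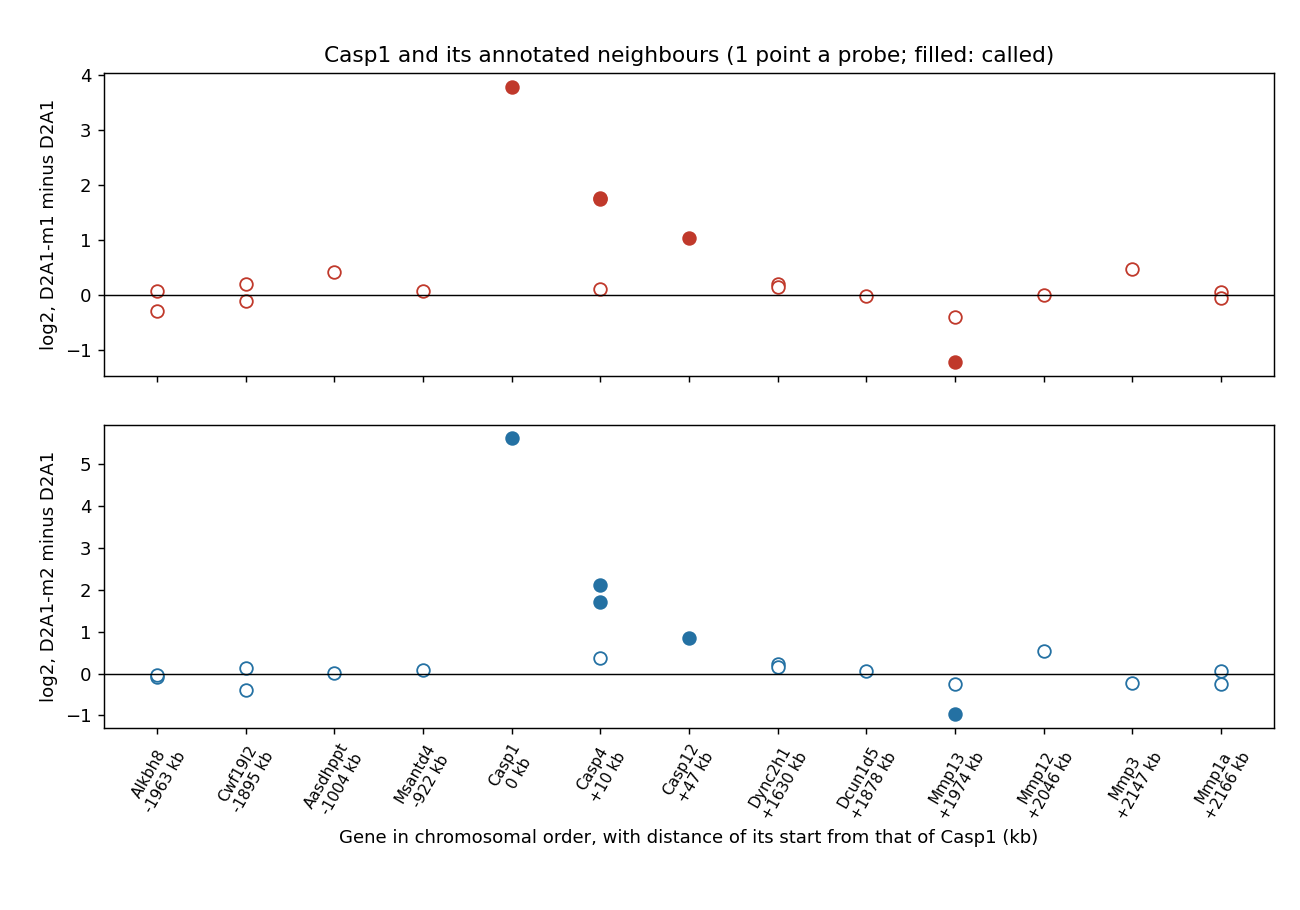
Log2 difference of Casp1 and its 12 annotated neighbours with a detected probe, in chromosomal order with the distance of each gene's start from that of Casp1 in kb, for D2A1-m1 minus D2A1 (upper panel, red) and D2A1-m2 minus D2A1 (lower panel, blue). Each point is a probe and filled points were called: Casp1, Casp4 and Casp12 stand above 0, and Msantd4 and Dync2h1 on either side lie near it.

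The start-site regions of Casp1, Casp4, Aim2 and Il18 are shown because these genes were called higher in both sublines, as was Gsdmd (RefSeq, GRCm38.p6, + strand, from 250 bases before the start to 50 after it). Matches to the motifs searched on both strands are in capitals.
Casp1, chr9:5298267-5298566: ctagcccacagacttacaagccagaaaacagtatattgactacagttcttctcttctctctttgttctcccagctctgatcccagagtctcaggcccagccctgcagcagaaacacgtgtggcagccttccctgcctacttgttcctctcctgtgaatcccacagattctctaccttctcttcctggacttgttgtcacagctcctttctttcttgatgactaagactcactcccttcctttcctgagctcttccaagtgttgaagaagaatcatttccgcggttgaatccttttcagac
Casp4, chr9:5308599-5308898: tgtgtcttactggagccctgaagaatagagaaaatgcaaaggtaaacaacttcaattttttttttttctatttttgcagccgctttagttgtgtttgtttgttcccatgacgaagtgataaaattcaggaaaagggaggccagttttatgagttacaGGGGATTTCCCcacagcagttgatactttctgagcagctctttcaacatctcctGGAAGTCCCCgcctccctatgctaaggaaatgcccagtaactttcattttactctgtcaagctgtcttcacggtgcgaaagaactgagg
Aim2, chr1:173420354-173420653: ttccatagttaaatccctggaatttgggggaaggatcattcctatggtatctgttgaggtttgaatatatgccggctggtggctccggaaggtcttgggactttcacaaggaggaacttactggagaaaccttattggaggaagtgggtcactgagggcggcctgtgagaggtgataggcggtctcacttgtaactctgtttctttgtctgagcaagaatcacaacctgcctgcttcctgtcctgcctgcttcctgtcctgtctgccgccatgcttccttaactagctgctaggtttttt
Il18, chr9:50554450-50554749: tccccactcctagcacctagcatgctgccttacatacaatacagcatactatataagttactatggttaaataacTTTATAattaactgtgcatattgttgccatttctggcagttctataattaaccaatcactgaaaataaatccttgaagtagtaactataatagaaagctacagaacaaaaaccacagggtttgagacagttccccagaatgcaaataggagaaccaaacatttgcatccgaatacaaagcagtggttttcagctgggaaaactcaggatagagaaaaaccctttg
The Casp4 region holds 3 matches to the NF-kB consensus, 2 of which overlap, and the regions of Casp1, Aim2 and Il18 hold 0. Such a match is present in 8.46% of the 32851 promoters in the table. The Il18 region holds 1 match to the TATA box (TATAAA, in 13.6% of promoters), and the other 3 regions hold 0. None of these 4 regions holds an interferon-stimulated response element (GAAANNGAAA, in 3.44% of promoters), an interferon-gamma activated site (TTCNNNGAA, in 8.3%) or an AP-1 site (TGANTCA, in 7.81%). In all, 8 of the 9 members had a region in the table, the exception being Gsdmd. A match is a run of letters and not evidence of binding, and a missing match says only that these letters are not in this window.

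The wider pathway was described with lists of genes of related function, beside shares over all detected probes of 6.20% called higher and 6.06% lower in D2A1-m1, and 7.10% higher and 5.90% lower in D2A1-m2. A listed probe that no D2A1 array detected passed the filter only through a subline, and its difference is a description, as for the members. The same holds in any comparison for a probe that no array of the dimmer line detected. Of the HIN-200 genes, the family of Aim2, together with other DNA-sensing genes, 11 probes of 7 genes were detected and 0 were called higher in either subline. In D2A1-m1 1 probe was lower, a share near that of all probes, and in D2A1-m2 4 were. Ifi202b, a HIN-200 protein that lacks a pyrin domain, averaged 981 ± 297 in D2A1-m1 and 787 ± 97.3 in D2A1-m2, against 1292 ± 464 in D2A1, with ILMN_3014753 (log2 −0.66 and −0.99, limma adjusted p = 0.0377 and 0.00419). The D2A1-m1 call was lost without any 1 of 6 arrays (adjusted p = 0.0597 to 0.306), and the second Ifi202b probe was called in D2A1-m2 only, at −0.61, a call lost without D2A1-m2 replicate 3 (−0.50, under 1.5-fold) or D2A1 replicate 3 (adjusted p = 0.0842). Mndal, another HIN-200 gene, was lower in D2A1-m2 (log2 −1.02, limma adjusted p = 0.0105), and not so without D2A1 replicate 3 (adjusted p = 0.109). Sting1, the adaptor that relays signals of cytosolic DNA to interferon, was lower in D2A1-m2 by 0.74 on the log2 scale (limma adjusted p = 0.0202), a call lost without D2A1-m2 replicate 2 (0.0651), D2A1-m2 replicate 3 (0.0706) or D2A1 replicate 3 (0.160).

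Among 20 probes of the IL-1 family, its receptors and their signalling proteins, 3 were higher and 3 lower in D2A1-m1, and 3 were higher and 5 lower in D2A1-m2, beside 6.20% higher and 6.06% lower over all detected probes in D2A1-m1, with 7.10% higher and 5.90% lower in D2A1-m2. Nothing is read from these counts, since Sigirr, Il33 and the Il1rap probes called in D2A1-m2 passed the filter without the dimmer line. Sigirr, a receptor of the IL-1 family that damps signalling by IL-1 and Toll-like receptors, differed most. It averaged 308 ± 10.2 in D2A1-m1 (SD, n = 2) and 199 ± 35.7 in D2A1-m2 (SD, n = 3), against 63.2 ± 2.23 in D2A1 (SD, n = 3), where no array detected it. Its level was at least 6.39-fold higher in D2A1-m1 and at least 3.82-fold higher in D2A1-m2, and since the probe passed only through the sublines no test is given. Il1rap, the co-receptor through which IL-1 signals, was lower in D2A1-m2 with 3 of its 4 detected probes, by at least 1.46-fold, 1.54-fold and 1.75-fold. No D2A1-m2 array detected these 3 probes. They passed only through the other lines and had to be brighter there, so that these differences are a description. The call was lost for ILMN_1243228 without D2A1-m2 replicate 1 (adjusted p = 0.0657). In D2A1-m1 Il1rap was lower with 1 probe (log2 −0.77), a call lost without D2A1-m1 replicate 1 (0.0797). Traf6, the ubiquitin ligase downstream of these receptors, was lower with 2 of 3 probes, by 0.63 and 0.80 in D2A1-m1 and by 0.71 and 0.85 in D2A1-m2 on the log2 scale. For Traf6 ILMN_2427560 the calls were lost without D2A1-m1 replicate 1 (0.0709), D2A1-m1 replicate 2 (0.214) or D2A1 replicate 3 (0.123) in D2A1-m1 and without D2A1 replicate 3 (0.0900) in D2A1-m2, and for ILMN_2960750 without D2A1-m1 replicate 1 (0.0813) in D2A1-m1. The alarmin Il33, which no D2A1 array detected, passed only through the sublines, and its values are a description. It was at least 1.19-fold higher in D2A1-m1 and at least 1.15-fold higher in D2A1-m2. The D2A1-m1 call was lost without D2A1-m1 replicate 1 (log2 1.027) or 2 (log2 0.776). The D2A1-m2 call was lost without D2A1 replicate 3 (adjusted p = 0.0542).

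The counts in the lists of genes that prime or restrain inflammasomes are read against the same shares of all detected probes, and at these list sizes a count of 0 or 1 is not set apart from them. Of 22 probes of interferon-linked genes, 1 was higher in D2A1-m1 and 1 lower in D2A1-m2, with medians of 0.34 and −0.28. The higher one was 1 of 2 probes of Zbp1, a sensor of nucleic acids in the Z form (log2 0.93, limma adjusted p = 0.0377), a call lost without any 1 of 6 arrays (adjusted p = 0.0524 to 0.319). The lower one was Stat2, a transcription factor of the interferon response (log2 −0.61, limma adjusted p = 0.0294), a call lost without any 1 of 5 arrays (−0.44 to −0.78). Of 14 probes of NF-kB priming genes, 1 was called, that of Cd14, a co-receptor for lipopolysaccharide, in D2A1-m1 (log2 1.28, limma adjusted p = 0.00382, and 0.0548 without D2A1-m1 replicate 1). Of the 9 probes of necroptosis genes and the 2 of other gasdermins and membrane rupture, Gsdme and Ninj1, 0 were called. Among 7 probes of other caspases, Casp12 was higher in both sublines and Casp8, the initiator of death-receptor apoptosis, was lower in D2A1-m1 with 1 of 2 probes (log2 −0.59), a call lost without D2A1-m1 replicate 1 (adjusted p = 0.125), D2A1-m1 replicate 2 (0.0877), D2A1 replicate 2 (−0.56, under 1.5-fold) or D2A1 replicate 3 (0.0601). For Cflar, which encodes the caspase-8 inhibitor c-FLIP, ILMN_2743945 and ILMN_2748129 were not detected on any array. Its probe ILMN_2426115 averaged 204 ± 11.2 in D2A1-m1 and 158 ± 15.6 in D2A1-m2, against 95.6 ± 11.01 in D2A1 (log2 1.28 and 0.89, limma adjusted p = 0.000868 and 0.00326). It was the 1 higher probe among the 16 of genes that regulate inflammasome assembly, beside 1 lower probe of 3 for the stress kinase Mapk8 (log2 −0.76 and −1.03), lost without D2A1-m1 replicate 1 (0.290), D2A1-m1 replicate 2 (0.0915), D2A1-m2 replicate 2 (0.0533) or D2A1 replicate 3 (0.137) in D2A1-m1 and without D2A1 replicate 3 (0.0565) in D2A1-m2. The 1 detected probe of other sensors, that of Nlrx1, was not called (log2 −0.44 and −0.45).

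**Figure D4:**
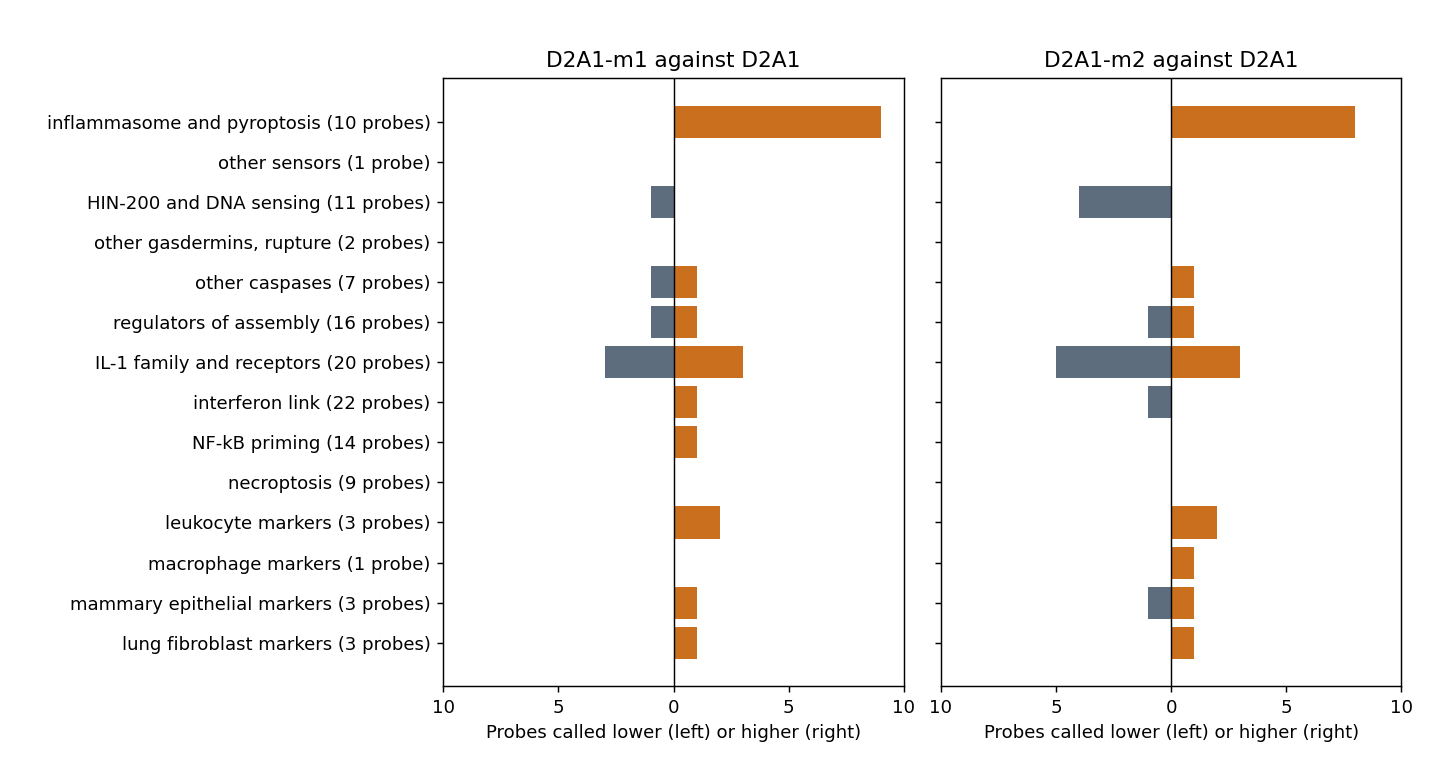
Number of detected probes called lower (grey, to the left) or higher (orange, to the right) in D2A1-m1 against D2A1 (left panel) and D2A1-m2 against D2A1 (right panel), for the inflammasome and pyroptosis genes and for lists of related genes and cell type markers, with the number of probes in brackets. The 10 inflammasome and pyroptosis probes were called higher 9 and 8 times, but 8 of them passed the filter only through the sublines. The called probes of Casp12, Sigirr, Il33, Coro1a, Laptm5, Lyz1 and Col1a1 also passed only through the sublines. Those of Il1rap called in D2A1-m2 passed without that line. Bars that hold such probes cannot be set against the others or against all detected probes, of which 6.20% and 7.10% were called higher.

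The sublines were recovered from lungs, and genes of the inflammasome are abundant in myeloid cells, so markers of other cells were read beside these results. Of 9 leukocyte genes, 1 was detected in D2A1-m1, 2 in D2A1-m2 and 0 in D2A1, and of 10 macrophage genes on the array 0, 1 and 0. The summed intensity of the leukocyte probes was 954 to 1022 in D2A1-m1 and 953 to 995 in D2A1-m2, against 829 to 874 in D2A1, and that of the macrophage probes 941 to 972, 991 to 1010 and 932 to 970. The defining markers Ptprc, Tyrobp, Cd52, Csf1r, Adgre1 and Spi1 were not detected on any array. No D2A1 array detected Coro1a, Laptm5 or Lyz1. Coro1a ILMN_2714796 was at least 1.68-fold higher in D2A1-m1 and at least 1.38-fold higher in D2A1-m2, and Laptm5, detected in D2A1-m2 only, was at least 1.48-fold higher there. Lyz1 was detected on 1 of 3 D2A1-m2 arrays and averaged 74 ± 4.76 in D2A1-m2, against 52.3 ± 1.097 in D2A1. Coro1a ILMN_2787257 was detected on 1 of 2 D2A1-m1 arrays, and its call in D2A1-m1 was lost without replicate 2 of that line (adjusted p = 0.0507). Their part in the differences of the inflammasome genes was not tested. None of 6 endothelial markers was detected. Of 8 lung fibroblast genes, 1 was detected in D2A1-m1, 2 in D2A1-m2 and 1 in D2A1, with sums of 827 to 845 in D2A1-m1 and 807 to 817 in D2A1-m2, against 746 to 784 in D2A1. Pdgfra was called in D2A1-m1 with 1 of 2 probes (log2 0.77), a call lost without D2A1-m1 replicate 1 (log2 0.615). Col1a1 was detected on 1 of 3 D2A1-m2 arrays and on no other array, and so passed only through D2A1-m2. Its difference there (log2 0.61) is a description. The call was lost without D2A1-m2 replicate 1 (adjusted p = 0.0610), D2A1-m2 replicate 3 (log2 0.46, under 1.5-fold) or D2A1 replicate 3 (adjusted p = 0.196). Of 11 mammary epithelial genes only Krt8, Krt18 and Cldn7 were detected, in all 3 lines, while Epcam, Cdh1, Krt5 and Krt14 were not. Krt8, a keratin of simple epithelia, averaged 793 ± 77.1 in D2A1-m1 and 886 ± 50.2 in D2A1-m2, against 118 ± 24.5 in D2A1 (log2 3.03 and 3.25), whereas its partner Krt18 was lower in D2A1-m2 (log2 −1.003).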

How the data were processed

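The members and the gene lists were chosen with earlier results of these data known. RNA of 8 cultures was hybridised to Illumina MouseWG-6 v2.0 arrays. The authors deposited, per probe and array, a non-normalized bead intensity and a detection p-value, the basis of all results here. They also deposited log2 values of 16462 probes that passed their detection filter, made by variance stabilization and robust splines, with ComBat applied to the 2 batches, with array medians of 7.828 to 7.837, used only as an alternative. For lumi, which made these values, no version is stated in the sources read here.

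Probes with a detection p of at most 0.01 on at least 1 array (16462 of 45281) were kept. Intensities were corrected with limma's neqc (R 4.3.3, limma 3.58.1), in which the background is fitted from the detection p-values, with an offset of 16, quantile normalization and log2. The correction widens differences of dim probes relative to plain log2 values. Line and batch were fitted with lmFit and eBayes (residual df 4, prior df 5.376, median residual SD 0.157), and p-values were adjusted over all 16462 probes. Precision is limited by the 8 arrays. Of the kept probes, 14107 name 1 gene, 6 several and 2349 none, by GEO's platform annotation with symbols updated through Entrez IDs in RefSeq. Genes named in the text were the members, at most 4 called genes a list, the neighbours of Casp1 and the 5 probes most like it. Of the listed genes, 18 have no named probe and were not analysed here. The fit was tested on simulated data. Alternatives covered the background, normalization, filter, batch, test and each array left out. The methods' t-test was run on batch-corrected values.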

Additional observations from a re-analysis of the deposited data

Results flagged for a closer look

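The difference from D2A1 was not the same in both sublines for 4 probes, by the direct test of D2A1-m1 against D2A1-m2. Casp1 differed by −1.82 on the log2 scale, higher in D2A1-m2. Gsdmd differed by 1.22 with ILMN_2748928, by 1.38 with ILMN_2752790 and by 1.58 with ILMN_2941324, all higher in D2A1-m1. No line had 4 arrays, so that no array could be tested as lying apart from its line.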

How the results depend on the processing

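Of 735 values of the members under alternative settings, 516 belonged to called differences, of which 448 stayed called, 68 lost the call and 0 reversed. Against 9 probes called in D2A1-m1, 8 in D2A1-m2 and 4 between the sublines, the authors' processed values gave 4, 3 and 2, and 1 probe a gene (5 tested) gave 5, 5 and 2. The methods' t-test at their unadjusted threshold gave 4, 5 and 1, and 0 between the sublines after Benjamini-Hochberg adjustment. Batch 1 alone gave 5 in D2A1-m2 and 0 between the sublines, where the lone subline arrays were assumed to vary like the others. Leaving out each array gave 8 to 9, 7 to 8 and 2 to 4. The 9 reversed values belonged to differences that were not called: Casp4 ILMN_2811746 in D2A1-m1 against D2A1 at −0.10 with batch 1 alone, −0.02 with the replicate block in place of batch and −0.12 without D2A1-m1 replicate 2 (range when leaving out each array −0.12 to 0.40). In D2A1-m1 against D2A1-m2 they were Casp4 ILMN_1254655 at −0.47 with batch 1 alone, −0.27 without D2A1-m1 replicate 2, −0.003 without D2A1-m2 replicate 2 and −0.03 without D2A1-m2 replicate 3 (range −0.27 to 0.35), and Casp4 ILMN_2811737 at 0.17 with batch 2 alone and 0.11 without D2A1-m1 replicate 1 (range −0.91 to 0.11). The cause was not tested. Deviations of same-numbered arrays from their line means, with the batch not removed, correlated at −0.28 to 0.68 (7 pairs, 5 over 0.1). Those below 0.1 paired D2A1 replicate 2 with D2A1-m1 replicate 2 (−0.28) and with D2A1-m2 replicate 2 (−0.16), across the batches. A pairing by number therefore cannot be told apart from the batch by these values. A fit with the replicate block gave 9, 8 and 4 calls. Over all probes, 2018, 2140 and 553 were called, against 498, 524 and 123 on the authors' values, 1067, 1088 and 309 with no background correction, 302, 668 and 89 with the methods' t-test and 191, 136 and 0 with batch 1 alone. An offset of 50 gave 1285 in D2A1-m1 and 1282 in D2A1-m2, 1 probe a gene gave 1313 in D2A1-m1 (9017 tested), and the adjusted t-test gave 599 there and 7 between the sublines. Between the sublines the count was 107 with no batch term, 134 with the replicate block in place of batch and 282 with no filter. Leaving out D2A1-m1 replicate 1 or 2 left 667 or 1077 calls in D2A1-m1 and 72 or 42 between the sublines, where leaving out D2A1-m2 replicate 1, 2 or 3 left 233, 158 or 126. Signal near background limits Il18, Casp4 ILMN_2811746 and Gsdmd ILMN_2752790.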
